A study of Mus musculus with 24 samples.

Results

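Among the 24 mice of the series, 6 were transgenic and diabetic (mG4H STZ), and they were divided here by the blood glucose that the sample labels give at 4 weeks. In 3 of them, replicates 3, 4 and 5, the label was 601, and in the other 3, replicates 1, 2 and 6, it was 516, 504 and 500. The division rests on the labels and used no array value. mG4H mice carried an inducible transgene for the glucose transporter GLUT4 that is expressed in cardiomyocytes, and CON mice were the controls without it. STZ mice received streptozotocin, a toxin of the insulin-producing beta cells, at 55 mg per kg on 5 consecutive days, and VEH mice received citrate buffer. According to the labels the hyperglycaemia preceded induction of the transgene by 2 weeks, and induction lasted 2 more weeks. All mice were male, left ventricles were taken within the same hour of the early morning, and each ventricle gave 1 array. The labels do not name the promoter or the inducing agent, and they mention sibling pairs across groups but identify none of them. Whether the STZ mice of 1 glucose group were littermates is therefore unknown. The vehicle groups CON VEH and mG4H VEH and the diabetic controls CON STZ, 6 mice each, serve as reference.

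In insulin-deficient diabetes the heart takes up less glucose through GLUT4 and burns more fatty acid. Fatty acids activate the nuclear receptor PPAR alpha, which switches on genes of fatty acid handling and, through the kinase gene Pdk4, holds back glucose oxidation. Severe, poorly controlled diabetes is also accompanied by raised glucocorticoids, fasting-like FoxO activity and shifted circadian gene expression in several tissues. The comparison asks whether ventricles of the same genotype and treatment differ with the degree of hyperglycaemia.

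The label of 601 may be a ceiling of the measurement. All 6 CON STZ mice were also at 600 or 601, and the labels give neither a unit nor an upper limit, so the 3 mice at 601 need not have had equal glucose. Vehicle mice lay between 117 and 164. Body weight at 4 weeks, also without a unit, was 21.1, 26.2 and 24.7 in the 601 mice 3, 4 and 5, and 23.9, 24.2 and 28.1 in the 500 to 516 mice 1, 2 and 6. The means of 24.0 and 25.4 differed by -1.4, which was within the spread of the mice (exact permutation test, two-sided, p = 0.6, n = 3 each). The smallest p that 20 splits can give is 0.1. Without 601 mouse 3, the lightest, the difference became 0.05.

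**Figure D1:**
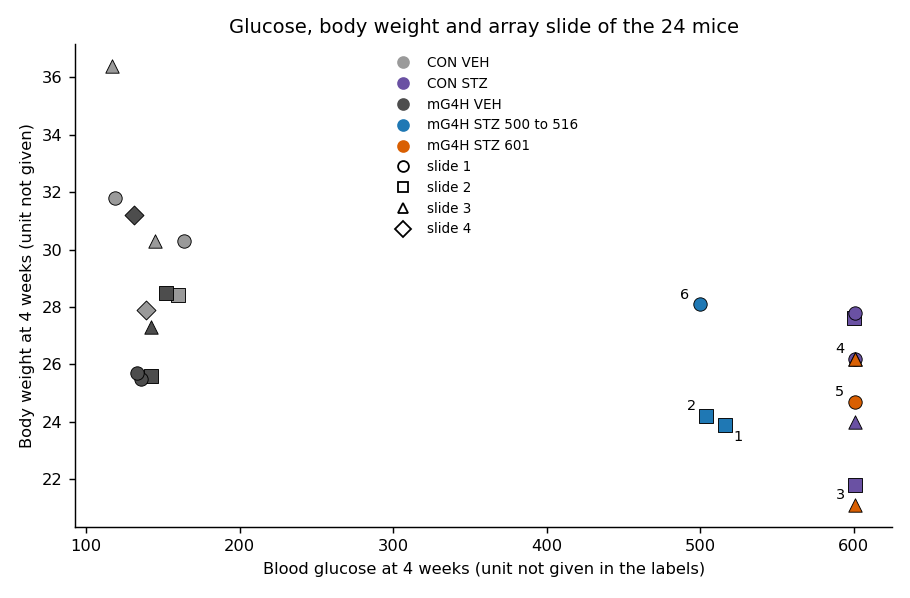
Blood glucose at 4 weeks (x axis, unit not given) against body weight (y axis, unit not given) for the 24 mice, coloured by group with the slide as marker shape; numbers are the replicates of the mG4H STZ mice. The mG4H STZ mice form a set at 500 to 516 and a set at 601, and only slide 1 holds a mouse of each.

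Slide and glucose group were nearly the same division. Slide 2 held the 500 to 516 mice 1 and 2, slide 3 held the 601 mice 3 and 4, and slide 1 held 601 mouse 5 and 500 to 516 mouse 6. Lists and some genes are therefore given also with slide as a block or as the difference of the pair on slide 1; for other genes named below, only the fit without slide is given. The first principal component of all arrays took 43.0% of the variance, and 86.7% of that lay between slides. On the second, which took 13.6%, 601 mice 5 and 3 lay farthest out at 96.4 and 64.0, while 601 mouse 4 lay at -13.5 and the 500 to 516 mice 1, 2 and 6 lay at 10.5, -33.3 and -6.51. The 601 mice 3 and 5 also had the lowest median correlation with the other arrays, 0.972 and 0.975. The cardiomyocyte marker list summed to 12.06 to 12.15 in the 500 to 516 mice and 12.09 to 12.37 in the 601 mice, on the log2 scale, within the 12.05 to 12.46 of mG4H VEH.

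Erythroid markers had lower means at 601, most strongly in 1 ventricle. The level of a gene is given throughout as log2 of its probe's processed signal minus the array's 75th percentile, so that 0 is that percentile. Hbb-b1, an adult beta-globin gene, was at 2.21 in 601 mouse 3, against 6.76 and 6.69 in the 601 mice 4 and 5 and 7.13, 8.73 and 7.47 in the 500 to 516 mice 1, 2 and 6. All 3 mice at 601 were thus below each 500 to 516 mouse and below the range of 7.08 to 7.82 in mG4H VEH, mouse 3 by far the most, and 500 to 516 mouse 2 was above that range. CON STZ mice ranged from 5.90 to 7.18, which takes in 601 mice 4 and 5. The difference between the glucose groups was -2.55 ± 0.73 (limma adjusted p = 0.0918), and -0.77 in the slide 1 pair. Of 10 erythroid markers 6 were measured. Their summed signal ran from 7.08 to 9.88 in the 601 mice and from 9.84 to 10.87 in the 500 to 516 mice. These ranges overlapped slightly. Mesothelial and epicardial markers, which line the heart's surface, were also uneven: their median against mG4H VEH of the same slide was 3.72 in 601 mouse 4 and 2.10 in 500 to 516 mouse 6, then 1.73 in 601 mouse 3 and at most 0.50 in the other 3 mice. On slide 3, which held 601 mice 3 and 4, the same-slide reference was 1 mG4H VEH mouse, here and below. The summed signal of the mesothelial and epicardial markers spanned 2.93 to 3.76 and 2.72 to 3.25 in the 601 and 500 to 516 groups. The part of either marker list in the results below was not tested.

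Over 28237 genes, 1 gene passed an adjusted p of 0.05 between the 601 and the 500 to 516 mice (limma, Benjamini-Hochberg). It was lower at 601, which is 0.00354% of the genes tested, and 0 genes (0%) were higher. At an unadjusted p under 0.05 there were 4806 genes, 17% of those tested. At the looser adjusted threshold of 0.10 there were 824 genes, 341 higher at 601 (1.21%) and 483 lower (1.71%), but with slide as a block 2 genes passed 0.10, Gm3716 and Vps37c, and 1 passed 0.05, Gm3716. Array weights, which give less weight to variable arrays, raised the count at 0.05 to 542, and leaving out 601 mouse 4 raised it to 4305, whereas no other single mouse took it above 3. The groups of 3 did not overlap for 2078 genes that were higher at 601 (7.36%) and 1650 that were lower (5.84%). The median difference over all genes was 0.09 on the log2 scale, -0.01 with slide as a block and -0.02 under median scaling, and list medians below are to be read against it.

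The gene that passed was Gm3716, a predicted gene whose probe lies at chr5:64987311-64987370 (mm9). Its level was -3.89, -4.34 and -3.93 in the 601 mice 3, 4 and 5 and -2.63, -2.52 and -2.39 in the 500 to 516 mice 1, 2 and 6. All 3 mice at 601 were below each of the other 21 mice, the nearest of which was a CON STZ mouse at -3.10. The difference was -1.54 ± 0.18 (SE), 2.90-fold lower, with adjusted p = 0.000636 by limma. With slide as a block it was -1.44 (adjusted p = 0.0287), and the slide 1 pair differed by -1.54. It kept its call without each mouse in turn, with an adjusted p of at most 0.0122, but not under every processing. The difference was -1.72 (adjusted p = 0.0963) with quantile normalization, -1.64 (adjusted p = 0.415) with median scaling and -0.68 (adjusted p = 0.0599) with normexp background correction. It was not called either when only the 6 mG4H STZ arrays were fitted (adjusted p = 0.78) or with the replicate number as a block (adjusted p = 0.163, and 0.43 with slide added). CON STZ and CON VEH differed by -0.07 ± 0.13 in this gene (adjusted p = 0.958). CON STZ mice were labelled 600 or 601 but lacked the transgene, and the part of glucose in this gene was not tested.

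The other 19 genes of smallest p did not pass, each with an adjusted p of 0.0825 by limma. Of the 20 genes together 10 were higher and 10 lower at 601, and their groups did not overlap, as their choice makes likely. Icam2, an adhesion molecule of endothelial cells, was at 4.00, 4.39 and 4.11 in the 601 mice and 4.74, 5.08 and 4.72 in the 500 to 516 mice. Its difference was -0.68 ± 0.13, and mG4H VEH mice ranged from 4.61 to 4.85. Angpt2, a ligand that loosens vessel walls, was at -0.68, -0.25 and -0.77 in the 601 mice and 0.23, 0.30 and 0.18 in the 500 to 516 mice. That put the groups on either side of the mG4H VEH median of -0.10, with a difference of -0.80 ± 0.16. The endothelial marker list did not share this direction: over 12 genes its median difference was 0.03, and 6 of them were higher at 601 (60.0% of all genes). Vps37c, a subunit of the endosomal sorting complex, had the smallest adjusted p of these 19 with slide as a block: its difference was 0.58 ± 0.11 without the block and 0.64 (adjusted p = 0.0734) with it. Also higher at 601 were Mpzl2, an epithelial junction protein gene, by 1.57 ± 0.31, Axin1, a scaffold of Wnt signalling, by 0.77 ± 0.16, Zbtb22 by 0.82 ± 0.15 and Tbc1d10a by 0.53 ± 0.10. Lower were Fam111a by -1.32 ± 0.26, the sialidase gene Neu3 by -1.27 ± 0.25, Zfp329 by -0.98 ± 0.20, Zfp229 by -0.65 ± 0.13 and Spata13 by -0.54 ± 0.11. The rest were Cd300lg, Tmem55b, Gm5910 and Gm7270, higher by 0.60 to 0.88, and B130055M24Rik, lower by 1.63. A second probe of Zfp229 differed by 0.14 and so did not share its direction.

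Several genes of the circadian clock had higher levels in the 601 mice. The clock factors CLOCK and BMAL1 bind the E-box CACGTG and drive Per1, Per2 and Ciart, whose products repress them, while Nr1d2 and Nr1d1 encode the REV-ERB repressors. Of 19 clock genes measured, 5 were higher at an adjusted p under 0.10 and 0 lower (background 1.21% and 1.71%), and 4 did not overlap between the groups in that direction (background 7.36%). The list's median difference was 0.29, 0.21 with slide as a block and 0.83 in the slide 1 pair. It was 0.50 without 601 mouse 4 and 0.22 without both 601 mice 3 and 5.

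Gm129, whose current symbol is Ciart, was at -1.20, -5.13 and -2.30 in the 601 mice 3, 4 and 5, well above background on all 3 arrays. In the 500 to 516 mice 1, 2 and 6 it was at -5.85, -7.50 and -7.19, well above background on none, so that the fold is a bound. The group means were -2.87 and -6.85 (limma adjusted p = 0.0825, from these levels). As a bound, the signal was at least 5.21-fold higher at 601. CON STZ mice ranged from -6.43 to -3.35 and mG4H VEH mice from -7.96 to -5.84. A bound here compares with the dimmest signal that each array still marked as above background.

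Per1 was at 5.80, 3.56 and 5.88 in the 601 mice and 2.58, 2.13 and 2.95 in the 500 to 516 mice. The groups did not overlap, 601 mouse 4 was the lowest of its group, and mG4H VEH mice lay at 1.98 to 2.44. The difference was 2.53 ± 0.56, 5.76-fold, with adjusted p = 0.0847. The slide block gave 2.68 and the slide 1 pair 2.93. Per2 was at 0.21, -1.79 and -0.54 against -2.26, -3.61 and -2.59, again without overlap and again with mouse 4 lowest. Its difference was 2.11 ± 0.45 (adjusted p = 0.0825) and 2.04 in the slide 1 pair. Nr1d2 (0.93 ± 0.22) and Tef (0.85 ± 0.24), a PAR bZIP activator under clock control, had adjusted p = 0.0901. The core genes Clock, Cry1, Npas2 and Bhlhe40 had adjusted p values of 0.598 or more. Against mG4H VEH, where 8 of the 19 rose at 601 and 1 fell (background 6.19% and 7.51%), Per1 rose by 2.85 ± 0.49 and Per2 by 2.71 ± 0.39. The same difference was 0.32 ± 0.49 and 0.60 ± 0.39 for these genes in the 500 to 516 mice (adjusted p = 1 for both).

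Upstream sequence is shown for Ciart and Per1, clock genes whose groups did not overlap, and for Klf15, a glucocorticoid-responsive gene described below whose groups did overlap. In RefSeq's promoter table (GRCm38.p6) the 250 bases before the start were searched for CACGTG, which reads the same on both strands. It was found for 5 of the 16 clock genes matched by symbol and for 5 of 15 glucocorticoid-responsive genes, against 6.86% of all 27025 genes in the table. Per1 counts in both lists. The glucocorticoid response element, searched as an inverted repeat that also reads the same on both strands, was found for 2 of 15 glucocorticoid-responsive genes (13.3%) and 0 of 16 clock genes, against 0.44% of the table. Capitals mark CACGTG. The Ciart window (chr3:95882257-95882354, minus strand) holds 3 copies, that of Per1 (chr11:69098756-69098815, plus strand) 1, and that of Klf15 (chr6:90462338-90462419, plus strand) 2. A match of letters is a description and not a shown binding site.
Ciart: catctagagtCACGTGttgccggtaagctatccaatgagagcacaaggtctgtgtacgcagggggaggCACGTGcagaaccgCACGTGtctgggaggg
Per1: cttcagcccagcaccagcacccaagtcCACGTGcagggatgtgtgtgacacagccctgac
Klf15: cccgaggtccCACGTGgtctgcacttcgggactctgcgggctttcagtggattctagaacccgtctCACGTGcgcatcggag

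**Figure D2:**
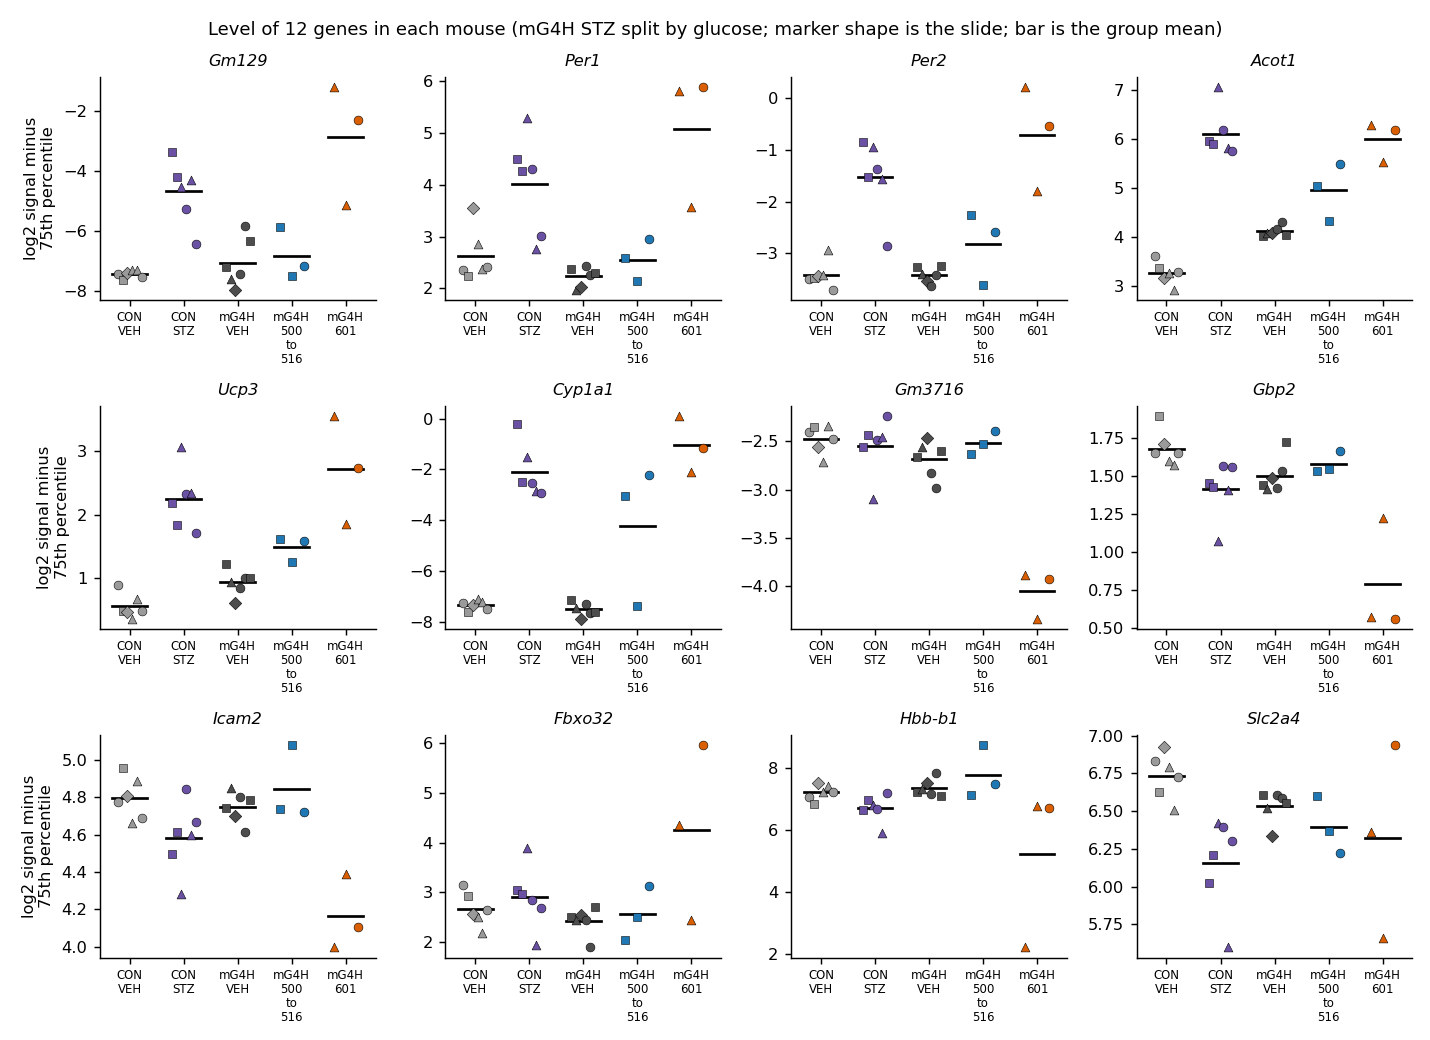
Level (y axis, log2 processed signal minus the array's 75th percentile) of 12 genes in each of the 24 mice, by group on the x axis; marker shape is the slide as in the plot of glucose against weight, and bars are group means. The 601 mice lie above the 500 to 516 mice for Gm129, Per1, Per2, Acot1, Ucp3 and Cyp1a1 and below them for Gm3716, Gbp2 and Icam2, while Slc2a4 overlaps.

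Genes that respond to glucocorticoids had the highest median of the 27 pathway lists, and that median came from 2 of the 3 mice at 601. Over 18 genes the median difference was 1.21, the same with slide as a block, and 2.14 in the slide 1 pair. Against mG4H VEH of the same slide the list's median was 1.90 and 2.27 in the 601 mice 3 and 5, but -0.14 in 601 mouse 4 and 0.44, -0.08 and 0.14 in the 500 to 516 mice 1, 2 and 6. Mouse 4 thus lay with the 500 to 516 mice, and without mice 3 and 5 the median difference was -0.14. It was 0.77 without mouse 5 alone and 1.83 without mouse 4. In the direct comparison 1 member passed an adjusted p of 0.10 (background 1.21% higher), and 2 did not overlap (background 7.36%). Against mG4H VEH 14 of the 18 rose at 601 and 1 fell (background 6.19% and 7.51%).

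Ddit4, an inhibitor of mTORC1 induced by glucocorticoids, was at 6.81, 4.42 and 7.82 in the 601 mice 3, 4 and 5 and at 4.34, 4.16 and 4.54 in the 500 to 516 mice. Its mG4H VEH range was 4.24 to 4.64, so that mouse 4 lay within the vehicle range and mice 3 and 5 lay far above. Klf15, a transcription factor of amino acid and lipid use, was at 3.21, 1.16 and 4.37 against 1.43, 0.82 and 1.53, the same order of mice. The differences were 2.00 ± 0.65 (adjusted p = 0.125) and 1.66 ± 0.54 (adjusted p = 0.127), and Errfi1, a brake on EGF receptor signalling, differed by 1.12 ± 0.36 (adjusted p = 0.125).

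The FoxO and muscle atrophy list showed the same division of the mice. Its median over 23 genes was 0.64, 0.52 with slide as a block and 1.38 in the slide 1 pair, and -0.14 without 601 mice 3 and 5. Fbxo32, the ubiquitin ligase atrogin-1, was at 4.36, 2.43 and 5.96 in the 601 mice and 2.03, 2.50 and 3.13 in the 500 to 516 mice. It was highest in mice 5 and 3, with mouse 4 inside the other group's range, and the difference was 1.70 ± 0.56 (adjusted p = 0.131). Sesn1, a stress-induced inhibitor of mTORC1, differed by 1.36 ± 0.44 (adjusted p = 0.125), and the translation inhibitor gene Eif4ebp1 by 1.13 ± 0.34 (adjusted p = 0.102). Bcl6, a transcriptional repressor, was lower at 601 by -1.15 ± 0.28 (adjusted p = 0.0901) without overlap. At adjusted p under 0.10 the list held 0 higher and 1 lower member, beside 1.21% and 1.71% of all genes. Immediate early genes, induced within minutes of a stimulus, had a median of 0.58 over 24 members, 0.51 with slide as a block, 0.29 without 601 mouse 3 and -0.11 without mice 3 and 5. Among them Btg2, an antiproliferative gene, differed by 1.20 ± 0.31 (adjusted p = 0.0901) and did not overlap, while Klf6 (0.98 ± 0.30), Myc (1.06 ± 0.36) and Zfp36 (1.39 ± 0.51) had adjusted p of 0.113 or more.

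Targets of PPAR alpha had higher levels in all 3 mice at 601 than in 2 of the 3 others. Of 22 genes measured 5 were higher at adjusted p under 0.10 and 0 lower (background 1.21% and 1.71%), and 6 did not overlap (background 7.36% higher). The median difference was 0.40, 0.34 with slide as a block and 0.17 in the slide 1 pair. It was 0.17 without 601 mouse 3, 0.25 without 500 to 516 mouse 2, and 0.35 without 601 mice 3 and 5. Against mG4H VEH of the same slide the median was 0.78, 0.58 and 0.62 in the 601 mice 3, 4 and 5. The 500 to 516 mouse 6 was as high, at 0.63, while mice 1 and 2 were at 0.19 and 0.03. At 601, 11 of the 22 rose against mG4H VEH and 1 fell (background 6.19% and 7.51%), and at 500 to 516 0 passed (0% of all genes in either direction).

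Acot1, a cytosolic acyl-CoA thioesterase, was at 6.28, 5.53 and 6.19 in the 601 mice and 5.05, 4.33 and 5.48 in the 500 to 516 mice. The groups were only just apart, at 5.53 and 5.48, and both were above the mG4H VEH range of 4.01 to 4.30. The difference was 1.04 ± 0.29, 2.06-fold (adjusted p = 0.0901), and it was 0.70 in the slide 1 pair. Ucp3, a mitochondrial uncoupling protein gene, was at 3.54, 1.85 and 2.73 against 1.62, 1.25 and 1.58, a difference of 1.23 ± 0.32 (adjusted p = 0.0901). A second Ucp3 probe differed by 0.25. Acot5 (1.22 ± 0.34), the lipid droplet coat gene Plin2 (0.51 ± 0.14) and Ucp2 (1.39 ± 0.41) also missed 0.05, with adjusted p of 0.0901 to 0.0992. Pdk4, the kinase that inactivates pyruvate dehydrogenase, was at 8.36, 7.72 and 8.76 against 7.23, 7.04 and 7.95, so that 500 to 516 mouse 6 exceeded 601 mouse 4. Its difference was 0.87 ± 0.28 (adjusted p = 0.119). Angptl4, a lipase inhibitor and strong PPAR target, showed no such order, at 5.07, 6.24 and 5.47 against 6.03, 4.97 and 6.68 (difference -0.30 ± 0.45, adjusted p = 0.82).

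The 25 fatty acid oxidation enzymes had a median of 0.21, 0.19 both with slide as a block and in the slide 1 pair, with 0 of them past 0.10 and 5 without overlap, all higher (background 7.36%). That median was 0.09 without 500 to 516 mouse 2, 0.12 without 601 mouse 5, 0.10 under quantile normalization and median scaling, and about 0 without 601 mice 3 and 5. They included Hadha (0.51 ± 0.16, adjusted p = 0.125), Decr1 (0.39 ± 0.17), Acadm (0.26 ± 0.12) and, with overlap, Ehhadh (0.69 ± 0.26). Of 19 lipid droplet and lipase genes 3 were higher and 1 lower at adjusted p under 0.10 (background 1.21% and 1.71%). Their median was 0.29, 0.23 with slide as a block, 0.70 in the slide 1 pair, 0.17 without 601 mouse 5 and -0.13 without 601 mice 3 and 5. Lipe, hormone-sensitive lipase, was at 1.04, -0.24 and 0.96 against -0.43, -1.17 and -0.05, a difference of 1.14 ± 0.29 (adjusted p = 0.0901). Dgat1, the last enzyme of triglyceride synthesis, differed by 0.60 ± 0.16, and G0s2, an inhibitor of adipose triglyceride lipase, was lower by -1.39 ± 0.37 (adjusted p = 0.0901 for both). G0s2 was at 0.77 and 1.39 in 601 mice 3 and 5 and at 2.89 in mouse 4, which lay within the 2.70 to 3.61 of the other group.

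Cyp1a1, a xenobiotic-metabolising cytochrome P450, was at 0.10, -2.12 and -1.15 in the 601 mice and at -3.05, -7.38 and -2.22 in the 500 to 516 mice 1, 2 and 6. Mouse 2 was not well above background, nor were the mG4H VEH mice, which ranged from -7.87 to -7.13. As a bound, the signal at 601 was at least 18.9-fold that of mG4H VEH (limma adjusted p = 0.000235, from these levels). That p rests on mG4H VEH values that were not well above background. Between the glucose groups no exact difference is given, since 1 of the 3 arrays at 500 to 516 did not measure the gene. In the slide 1 pair, measured on both sides, it was 1.07. Tmprss4, a membrane serine protease gene that fell in CON STZ, was at -4.70, -2.84 and -3.32 against -2.42, -2.04 and -2.47 (difference -1.31 ± 0.46, adjusted p = 0.148).

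Interferon-stimulated and antigen presentation genes had lower levels at 601. Of 30 genes measured 5 were lower at adjusted p under 0.10 and 0 higher (background 1.71% and 1.21%), and 11 did not overlap, all lower (background 5.84%). The median difference was -0.76, -0.60 with slide as a block, -0.64 in the slide 1 pair and -0.29 without 601 mice 3 and 5. Against mG4H VEH of the same slide the medians were -0.84, -0.08 and -0.47 in the 601 mice 3, 4 and 5. They were -0.03, 0.22 and 0.21 in the 500 to 516 mice 1, 2 and 6, so mouse 4 lay near mouse 1 against this same-slide reference. Gbp2, an interferon-induced GTPase, was at 0.57, 1.23 and 0.56 in the 601 mice and at 1.54, 1.54 and 1.67 in the 500 to 516 mice. The latter lay within the mG4H VEH range of 1.41 to 1.72 and all 601 mice lay below it. Its difference was -0.80 ± 0.15 (adjusted p = 0.0825). Gbp3 (-1.07 ± 0.26), Stat2 (-0.89 ± 0.24), which carries the interferon signal to the nucleus, the antiviral gene Oas1a (-1.27 ± 0.34) and the ubiquitin-like Isg15 (-0.91 ± 0.25) had adjusted p = 0.0901. Against mG4H VEH 13 of the 30 fell at 601 and 2 rose (background 7.51% and 6.19%). In CON STZ 0 of them fell and 1 rose against CON VEH (background 2.89% and 2.21%). The list's median level still ran from -0.61 to 0.66 across CON STZ mice. It ran from 0.20 to 0.91 in CON VEH and from 0.42 to 0.96 in mG4H VEH. At 601 it ran from -0.50 to 0.34 and at 500 to 516 from 0.51 to 0.81, so without a slide reference the glucose groups did not overlap. Lymphocyte markers, of which 12 were measured, had a median of -0.35, which became 0.09 without 601 mouse 5, and their summed signal was 1.72 to 2.53 at 601 and 1.90 to 2.55 at 500 to 516. Their part in the interferon genes was not tested.

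Cell division genes were lower at 601, but 500 to 516 mouse 1 shared their level. The median over 24 genes was -1.11, -0.88 with slide as a block and -1.19 in the slide 1 pair. It was -0.54 without 500 to 516 mouse 2. Against mG4H VEH of the same slide the medians were -1.28, -0.72 and -1.04 in the 601 mice, and -1.07, 1.12 and 0.15 in the 500 to 516 mice 1, 2 and 6. Mcm2, a replication helicase subunit, was at -2.19, -1.18 and -1.84 against -1.24, 0.16 and -0.20 (difference -1.31 ± 0.35, adjusted p = 0.0901). Cenpe, a kinetochore motor gene, differed by -1.55 ± 0.48 and cyclin gene Ccna2 by -1.59 ± 0.53 (adjusted p = 0.11 and 0.129). Only 1 of the 24 passed 0.10 (background 1.71% lower), and 0 were without overlap. In 500 to 516 mouse 2, where these genes were highest, the erythroid marker median was also highest at 1.67, and in 601 mouse 3, where they were lowest, it was lowest at -3.99. How far the lists share cells was not tested.

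Acute-phase and activated myeloid genes had a median of 0.80 over 23 members, the same with slide as a block and 0.41 in the slide 1 pair, but 0.05 without 601 mouse 3. Serpina3n, a protease inhibitor of the acute phase, was at 3.62, -0.33 and 2.26 against 0.27, -1.39 and -0.74, with mouse 4 inside the other group's range (2.47 ± 0.70, adjusted p = 0.0907). Saa1, an acute-phase apolipoprotein gene, was at 0.83, -1.17 and -1.19 against -1.72, -1.50 and -2.12, without overlap but with an adjusted p of 0.143. Macrophage and monocyte markers had a median of 0.28, and of -0.08 without mouse 3. The atrial marker median was 0.69, of which 1.37 in 601 mouse 4 was the highest against its own slide. It was 0.12 without mouse 4, 0.23 without 601 mouse 3, 0.35 without 500 to 516 mouse 2 and 0.05 in the slide 1 pair. Nppa, the atrial natriuretic peptide gene, was at 9.01, 7.12 and 5.81 against 6.68, 5.92 and 6.10. Nppa overlapped, with adjusted p = 0.356 and a reversed sign in the slide 1 pair, at -0.29.

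**Figure D3:**
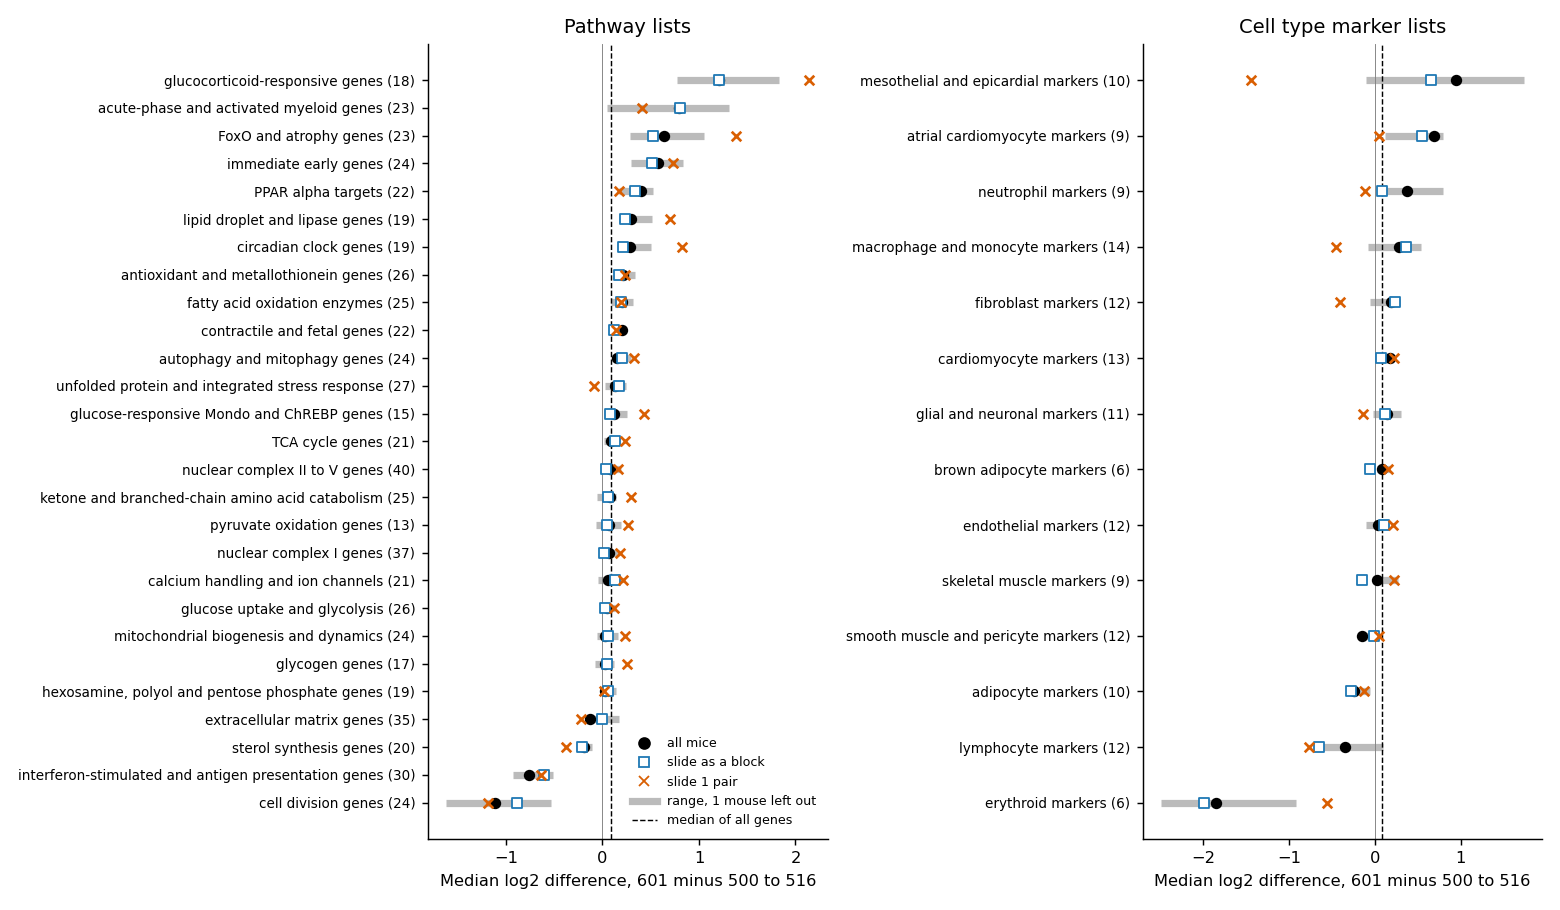
Median log2 difference (x axis, 601 minus 500 to 516) of 27 pathway lists and 14 cell type marker lists (y axis, number of genes measured in brackets), from all mice, with slide as a block and in the slide 1 pair; grey bars run from the lowest to the highest median when 1 mouse is left out, and the dashed line is the median of all genes, 0.09. Glucocorticoid-responsive genes stand highest at 1.21, and mesothelial markers turn from 0.94 to -1.44 in the slide 1 pair.

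Genes of glucose and mitochondrial energy use lay near the median of all genes. The list medians were 0.04 for glucose uptake and glycolysis, 0.12 for glucose-responsive Mondo and ChREBP genes, 0.09 for the TCA cycle, 0.06 for nuclear complex I genes and 0.08 for complexes II to V. Under quantile normalization all of these but the Mondo and ChREBP list turned negative, with -0.05 for glycolysis and -0.06 for complex I. Slc2a4, the GLUT4 gene that the transgene supplies, was at 6.36, 5.66 and 6.94 in the 601 mice and 6.60, 6.37 and 6.22 in the 500 to 516 mice. These values overlapped, with 601 mice at both ends, and the difference was -0.08 ± 0.23 (adjusted p = 0.918). It was 0.06 with slide as a block. The mG4H VEH mice ranged from 6.33 to 6.61 and the CON VEH mice from 6.51 to 6.93, so the probe's signal was no higher in the transgenic vehicle mice, and whether this probe reads the transgene is not known here. Among other transporters Slc2a12 (GLUT12) was lower at 601 by -0.42 ± 0.13 without overlap, and Slc2a1 (GLUT1) was at 2.90, 1.26 and 4.28 against 2.22, 1.61 and 1.54, with adjusted p = 0.105 and 0.266. Txnip, which the glucose sensor Mondo induces, was at 5.75, 5.81 and 5.89 against 5.79, 4.98 and 5.88 and its relative Arrdc4 at 3.25, 0.88 and 1.61 against 1.23 at most, in each case with 1 mouse apart. A second Arrdc4 probe had the opposite sign, -0.72.

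Against mG4H VEH the 2 glucose groups gave different counts. At 601, 1748 genes rose (6.19%) and 2122 fell (7.51%) by limma at adjusted p under 0.05, 3062 with slide as a block, of which 2603 were also called without it. The count was 537 without 601 mouse 3, 2113 without mouse 5 and 6405 without mouse 4. Median scaling left 91 higher and 227 lower. At 500 to 516, 0 genes were called higher (0%) and 0 lower (0%), with 742 at an unadjusted p under 0.05, 2.63% of genes. There the count was 8 with array weights and 3 without mouse 2. The comparisons share the mG4H VEH mice, and a gene called in one and not in the other is not shown to differ: that difference is the 601 against 500 to 516 contrast, where 1 gene passed.

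Diabetes-responsive genes were taken from the CON mice, whose arrays enter neither glucose group. CON STZ against CON VEH called 624 genes higher (2.21%) and 816 lower (2.89%). Of the 624, 541 (86.7%) were higher at 601 than at 500 to 516, where 60.0% of all genes were, and 151 (24.2%) did not overlap in that direction (background 7.36%). Their median difference was 0.36, 0.35 with slide as a block and 0.28 in the slide 1 pair, beside 0.09 for all genes. Against mG4H VEH their median was 0.83, 0.34 and 0.56 in the 601 mice 3, 4 and 5 and 0.34, 0.08 and 0.28 in the 500 to 516 mice 1, 2 and 6. Mouse 4 and mouse 1 were level. CON STZ mice, whose arrays chose the genes, ranged from 0.34 to 0.75, also against mG4H VEH and so across genotype. Without 601 mice 3 and 5 the median difference was 0.05, and with median scaling, which chose 98 genes in all, it was 0.73. Over all genes, each mouse's difference from mG4H VEH was also correlated with the CON STZ effect. The correlation was 0.54, 0.35 and 0.36 in the 601 mice 3, 4 and 5. In the 500 to 516 mice 1, 2 and 6 it was 0.45, 0.19 and 0.02, so mouse 1 exceeded 601 mice 4 and 5.

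The 816 genes lowered in CON STZ had a median difference of -0.20, -0.17 with slide as a block and -0.07 in the slide 1 pair. Of these genes 185 (22.7%) did not overlap and were lower at 601 (background 5.84%). The medians against mG4H VEH were -0.55, -0.40 and -0.31 in the 601 mice and -0.24, -0.20 and -0.25 in the 500 to 516 mice, which did not overlap. Among panel genes lowered in CON STZ, the ketone oxidation genes Oxct1 and Bdh1 and the GABA transaminase gene Abat differed between the glucose groups by -0.25 ± 0.16, -0.58 ± 0.38 and -0.40 ± 0.29, with adjusted p of 0.437 or more. Bdh1 turned to 0.07 without 601 mouse 4. With body weight as a covariate 1 gene was called between the glucose groups, and 1568 genes between 601 and mG4H VEH.

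**Figure D4:**
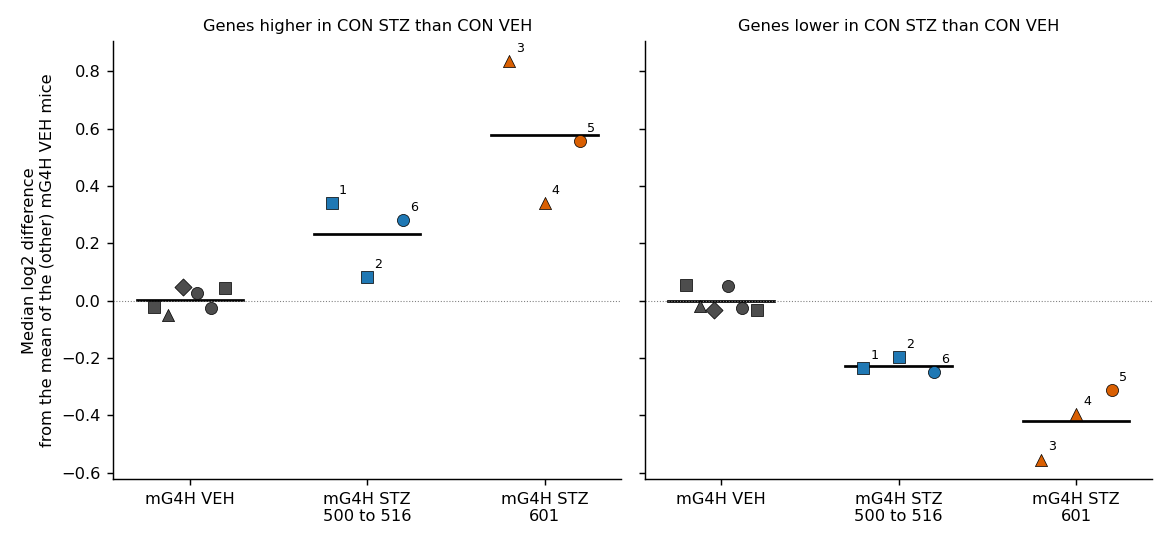
Median log2 difference from the mean of the mG4H VEH mice (y axis; for each mG4H VEH mouse, from the other 5) of genes called higher (left) or lower (right) in CON STZ than in CON VEH, for each mG4H mouse by group (x axis); numbers are replicates, marker shape the slide and bars the group means. For the raised genes 601 mouse 4 and 500 to 516 mouse 1 are level at 0.34, and for the lowered genes the groups are separate.

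**Figure D5:**
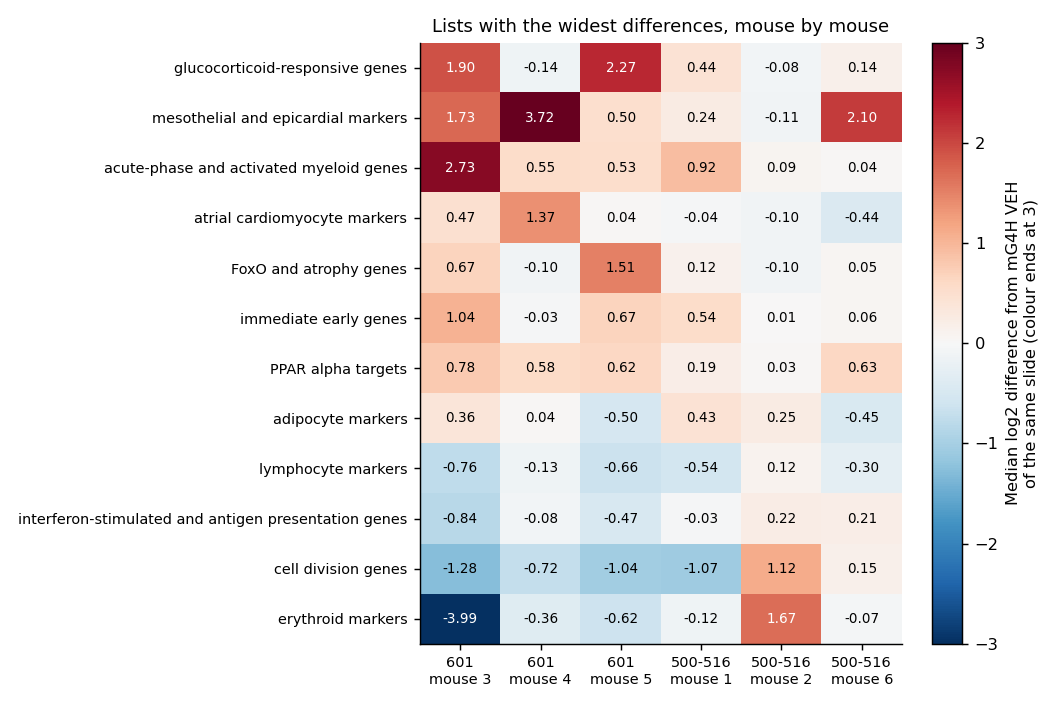
Median log2 difference (colour and printed value) of the lists that lay more than 0.3 from the median of all genes (rows) in each mG4H STZ mouse (columns), against the mG4H VEH mice of its own slide, which were 2 on slides 1 and 2 and 1 on slide 3. Glucocorticoid-responsive genes are at 1.90 and 2.27 in 601 mice 3 and 5 and at -0.14 in 601 mouse 4.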

How the data were processed

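Left ventricular RNA of 24 mice was hybridised to 1-colour Agilent arrays, 1 array per mouse. Feature Extraction (Agilent) and limma are the tools that the submitters' processing notes list. Per the file headers, the software version was 10.5.1.1 and the deposited processed signal is a spot intensity after background subtraction and detrending, not scaled between arrays; probe positions are on mm9. The deposited mean signal and local background intensity served in an alternative correction, and the deposited flags (spots marked as outliers, saturated or well above background, a further kind of value) in filtering. The arrays' 75th percentiles lay between 370 and 583, and the share of gene spots well above background between 58.5% and 76.3%. Precision is limited by how many arrays there are. Whether p-values reflect separate litters is not known.

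From log2 of the processed signal the log2 of the array's 75th percentile over 59305 gene spots was subtracted. Outlier spots were left out and repeated spots averaged. Probes well above background on at least 6 of 24 arrays were kept (39769), and the brightest per gene name gave 28237 genes. Of the 27016 probes with a RefSeq accession 26413 matched the table of current symbols. All arrays were fitted with limma 3.58.1 in R 4.3.3, with 5 group means and no covariate, two-sided, Benjamini-Hochberg over all genes, threshold 0.05. No probe was assigned to an exon or untranslated region, since no mm9 annotation was used here. Of 758 genes in 41 lists, 733 were measured, 7 of them under an older name on the array. Lists are described by counts and medians, without a test. Named genes are those past the threshold, up to 20 filled by smallest p, 19 panel genes, and up to 4 members of smallest p per list; further members named were chosen after their values were seen. A further panel gene is not reported here. The glucose groups, members and lists were chosen with earlier results of these data known.

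Alternatives were quantile normalization, median scaling, normexp correction, other filters, mean or single probes, fits of 2 groups, a block for slide, replicate number or scan day, array weights, body weight as a covariate, a trended prior, other thresholds and leaving out each mouse. The fit was tested on simulated data. Leaving out 601 mice 3 and 5 together, the slide block without slide 4 and the own-slide reference were added after the data were seen. Files were read and figures made in Python 3.11.15 (pandas 2.3.3, numpy 2.4.6, matplotlib 3.10.9).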

Additional observations from a re-analysis of the deposited data

Results flagged for a closer look

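In 156 tests of a single mouse against the others of its group, over the named and panel genes, a mouse stood apart in 16, several of them the same mouse; chance flags about 1 group in 20. Among the 6 mG4H STZ mice, 500 to 516 mouse 2 was lowest in Txnip at 4.98. The 601 mouse 3 was highest in Arrdc4 at 3.25 and in Timp1 at 3.52, and 601 mouse 4 was lowest in Bdh1 at 2.71.

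CON STZ mouse 3, also labelled 601, was lowest of its group in Gm3716 at -3.10, in Gbp2 at 1.07, in Fam111a at -0.15 and in Neu3 at -1.24, and highest in Acot1 at 7.05. For each of these genes it lay on the side of the 601 mice among mG4H STZ. This mouse was on slide 3, which also held 601 mice 3 and 4, and all CON STZ mice were labelled 600 or 601. Gm3716, Gbp2, Fam111a and Neu3 had been named for their small p between the glucose groups. The part of slide was not tested. Myh7 was lowest in CON STZ mouse 6 at 7.81.

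In mG4H VEH, mouse 3, one of the 2 mice on slide 4, was lowest in Fam111a at 0.15 and in Slc2a4 at 6.33 and highest in B130055M24Rik at -1.99 and in Abat at 3.12, and mouse 4 was lowest in Gm5910 at -1.85. In CON VEH, mouse 4 was highest in Tmprss4 at -0.26.

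The effect of STZ on Gm3716 differed between the glucose groups by -1.54 (limma, adjusted p = 0.000636), lower in 3 of 3 mice at 601.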

How the results depend on the processing

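The 20 genes of smallest p kept their direction in all 459 alternatives run for them. They were chosen by p in these same data and their groups did not overlap, so leaving out a mouse could not reverse them. The second Zfp229 probe, at 0.14 and of opposite sign, is not counted among these alternatives. The count of genes called between 601 and 500 to 516 (1 gene) was 0 with quantile normalization, 0 with median scaling, 0 in a fit of only these groups, 2 with no filter, 542 with array weights, 824 at an adjusted p under 0.10 and 17 without 601 mice 3 and 5. With normexp correction it was 1, a gene that was higher at 601 and not Gm3716. Leaving out single mice gave 1 to 4305, the highest without 601 mouse 4, with 3 without 500 to 516 mouse 6. Against mG4H VEH, the 3870 calls at 601 became 318 with median scaling, 156 with only the groups compared, 1568 with body weight, 943 at 2-fold or more, 32 without mice 3 and 5, 2525 with a slide block without slide 4, and 537 to 6405 when single mice were left out. The 0 calls at 500 to 516 became 1 with quantile normalization, 1 with normexp, 8 with array weights, and 0 to 3 without single mice. CON STZ against CON VEH (1440) gave 98 with median scaling, 247 with body weight, 2523 with array weights, 264 at 2-fold or more, and 870 (without CON STZ mouse 1) to 1617 without single mice.

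The glucose groups share no replicate numbers. Same-numbered mG4H STZ and mG4H VEH mice correlated in their deviations at -0.37 to 0.56. Most of these mice lay on different slides from their counterparts, so the values cannot decide whether the numbers pair the mice. A replicate block gave 0 calls between the glucose groups (0 with slide added), 2220 at 601 against mG4H VEH (767 with slide) and 750 in CON STZ with slide; it turned Myh6 to -0.17 (-0.24 with slide) and, with slide, Nppb to -0.021.

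The median of genes raised in CON STZ was 0.73 with median scaling, 0.051 without mice 3 and 5 and 0.21 to 0.55 without single mice. That of the lowered genes was -0.67 with median scaling, -0.074 within slide 1 and -0.28 to -0.14 without single mice. The body weight difference ran from -2.5 to 0.05. Myh6 (0.03) was -0.16 with quantile normalization, -0.081 with median scaling, -0.026 with normexp, -0.12 with a slide block (also without slide 4), -0.15 (without 601 mouse 3) to 0.12 without single mice and -0.16 without mice 3 and 5. Slc2a4 (-0.08) was 0.064 with a slide block, 0.056 with that block and no slide 4, and -0.39 (without 601 mouse 5) to 0.25 (without 601 mouse 4) without single mice. Over single mice left out, Txnip ran from -0.018 (without 500 to 516 mouse 2) to 0.43, Timp1 from -0.038 (without 601 mouse 3) to 1.30, Bdh1 from -0.93 to 0.073 (without 601 mouse 4) and Angptl4 from -0.76 to 0.090 (without 500 to 516 mouse 6). Without mice 3 and 5, Timp1 was -0.22, Angptl4 0.34 and Arrdc4 -0.22. The cause was not tested for any of these. Genes not above background have only a bound, and 3 mice a group limit all comparisons.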

Other observations

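In some stress and matrix genes, too, 601 mouse 4 was the lowest of the 3 mice at 601. Hmox1, heme oxygenase 1, was at 3.29, 1.22 and 3.95 in the 601 mice 3, 4 and 5 and at 1.33, 0.87 and 1.53 in the 500 to 516 mice, with mouse 4 inside the other group's range (difference 1.58 ± 0.48, limma adjusted p = 0.105). Gpx3, a secreted glutathione peroxidase gene, was at 5.03, 4.21 and 4.49 against 4.05, 3.56 and 3.78, without overlap (0.78 ± 0.20, adjusted p = 0.0901). Of the matrix genes, Timp3, a metalloproteinase inhibitor, was at 5.17, 3.38 and 5.62 against 3.28, 2.62 and 3.17 (1.70 ± 0.44, adjusted p = 0.0901) and Ctgf, a profibrotic factor, at 8.80, 6.55 and 8.27 against 6.85, 5.82 and 6.27 (1.56 ± 0.47, adjusted p = 0.105). Of 35 matrix genes 2 were higher and 0 lower at adjusted p under 0.10, beside 1.21% and 1.71% of all genes. The list's median of -0.13 had no stable sign: it was -0.01 with slide as a block, 0.17 without 601 mouse 5 and 0.04 without 601 mice 3 and 5. In sterol synthesis Idi1, an isoprenoid isomerase gene, was at 0.15, 0.50 and 0.03 against 1.04, 1.08 and 0.70 without overlap (-0.71 ± 0.17, adjusted p = 0.0901). Sqle, squalene epoxidase, was at -1.84, -0.92 and -3.35 against -0.59, 0.04 and -0.53 (-1.68 ± 0.51, adjusted p = 0.107), while Fdft1 was higher at 601 by 0.59 ± 0.23.

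On the second principal component CON STZ mouse 3 lay at 50.6, nearest to the 601 mice 3 and 5 at 64.0 and 96.4, and CON STZ mouse 4 at 30.5. The other CON STZ mice lay between -8.61 and 20.8, with the same glucose label of 600 or 601.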
